A study of Mus musculus with 6 samples.

Results

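The 45 genes described here carry fatty acids into the cell and oxidise them: the membrane transporters and binding proteins, the acyl-CoA synthetases, the carnitine shuttle, the enzymes of the mitochondrial spiral with their electron carriers, the auxiliary and peroxisomal enzymes, the PPAR receptors with their coactivator PGC-1alpha, and a pair of uncoupling proteins. They were taken as a list of gene names from 34574 gene names on the arrays, and each gene was represented by the brightest of its probes that carried no outlier mark. Of the 45, 44 had such a probe, 41 gave a signal that the scanner software called well above background on 1 or more arrays and 35 did so on all 6, against 19046 and 14991 of all gene names. The exception was Acaa2, the mitochondrial 3-ketoacyl-CoA thiolase, whose probe carried outlier marks on 4 of its 10 spots.

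A long-chain fatty acid is taken up with the help of membrane proteins such as CD36, held in the cytosol by binding proteins, activated to acyl-CoA and passed to carnitine by carnitine palmitoyltransferase 1 (CPT1), the step that sets the rate of mitochondrial oxidation and that malonyl-CoA inhibits. Inside the mitochondrion each turn of the spiral consists of a dehydrogenation, a hydration, a second dehydrogenation and a thiolytic cleavage, and electrons pass through the electron transfer flavoprotein to ubiquinone. PPAR receptors are nuclear receptors that bind fatty acids and switch on many of these genes, and the proximal tubule of the kidney draws much of its energy from this pathway.

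The cells were mProx24, a proximal tubular line from mice of strain C57B6, grown in Dulbecco's medium with fetal calf serum, and their RNA was read on 6 single-colour Agilent arrays, 1 for each condition. Triple stimuli with rapamycin (which inhibits the kinase complex mTORC1 and was given at 0.4 µg/ml for 12 h before palmitate) and triple stimuli combined 1% oxygen for 12 h, high glucose and 150 µM palmitate for 9 h bound to 0.15% bovine serum albumin. Hypoxia was 1% oxygen without palmitate, and high glucose, high FFAs (free fatty acids, the palmitate stimulus) and control were at 20% oxygen. The labels mark the arrays without palmitate PBS, while no glucose concentration or vehicle of rapamycin is stated in the labels. With 1 array per condition no test was possible, so every difference below compares a pair of arrays and has no replicate error.

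A pair of labels crossed. The values of the array whose scanner file is labelled high glucose stand in the deposited value table under high FFAs, and the reverse held for the other file. The first is called array A and the second array B, both kept as they are, and which stimulus each received cannot be told from these files. The oxygen labels were checked with 3 targets of the hypoxia-inducible factor. Bnip3, a mitophagy receptor, had levels of 6.06, 6.48 and 6.90 with triple stimuli plus rapamycin, triple stimuli and hypoxia, against 4.02, 3.82 and 3.76 on array A, array B and control, and Ak4 and Pdk1 were likewise higher on each array at 1% oxygen than on each at 20%. The 6 arrays shared 1 slide, with the 3 at 1% oxygen in its second row and the 3 at 20% in its first, so oxygen and slide row cannot be told apart. In the first 64 rows of spots, which hold 12 of the 41 members measured between hypoxia and control, 9.38% of genes were at least 2-fold higher in hypoxia than in control, against 3.38% in the other rows. Of 16 proximal tubule markers, 9 were well above background, among them Lrp2 and Cubn (the endocytic receptors megalin and cubilin), while the transporters Slc34a1, Slc5a2, Slc5a1, Slc22a6 and Slc22a8, the factor Hnf4a and the scaffold Pdzk1 were not on any array. The summed signal of the markers, relative to the array's 75th percentile, was 98.4 with triple stimuli plus rapamycin, 111 with triple stimuli, 182 in hypoxia, 102 on array A, 155 on array B and 145 in control, and its part in the results was not tested. Of the markers of other cell types on the arrays, 3 of 4 were well above background for epithelium (Krt8, Krt18 and Krt19), 2 of 4 for fibroblasts, 2 of 6 names for macrophages and leukocytes (Adgre1 is counted there a further time as Emr1), 1 of 5 for endothelium, 1 of 6 for distal tubule and collecting duct, and 0 of 4 for adipocytes. The summed signal of the epithelial markers was 252 with triple stimuli plus rapamycin, 290 with triple stimuli, 224 in hypoxia, 167 on array A, 201 on array B and 188 in control, and that of the macrophage and leukocyte markers, of which Cd68 and Csf1r were detected and Ptprc, Adgre1 and Lyz2 were not, was 22.8 in hypoxia, against 14.2 in control, and lay between 11.4 and 14.2 on the other 4 arrays. Their part in the results was not tested either. In such bulk RNA, fewer cells of a type and less RNA per cell cannot be told apart.

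Levels are given as log2 of the processed signal over the 75th percentile of its array, so that 0 is that percentile, and a level belongs to its probe and is not set against the level of another gene. A gene counted as measured between 2 arrays if either of them was well above background for its probe, and it was called at a 2-fold difference, which is 1 on the log2 scale. An array not well above background was raised to that array's lowest well-above-background signal, and the difference is then a bound. Spots of the same probe on an array had an SD of 0.093 (array B) to 0.136 (hypoxia), a measure of technical spread within an array only.

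Most of the genes well above background on all 6 arrays differed little between conditions. Of the 35 genes well above background on all 6 arrays, 34 had a range over the arrays of less than 1 (97.1%, against 88.5% of the 14991 genes measured as well), and their median range of 0.5 was that of all genes. The ranges ran from 0.16 for Ppara, the receptor PPARalpha, to 1.05 for Fabp5, the epidermal fatty acid binding protein. The lowest of the 6 levels was that of triple stimuli with rapamycin in 14 genes and of triple stimuli in 10, and the highest was that of array B in 14. The same was not counted over all genes, so these counts are not read as a trait of the pathway. The 35 leave out Cpt1a, Cpt1b, Fabp3, Ppargc1a, Ucp2 and Ucp3, which were well above background on fewer arrays. Their ranges were 2.36, 3.68, 1.10, 2.55, 1.01 and 1.04, with levels near background included. Every gene called below is among them.

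Across the 6 comparisons only 3 of the 45 genes passed 2-fold, Cpt1a, Cpt1b and Fabp3, in 6 calls. Between array A and control, 2 of 40 measured genes were called higher and 0 lower, where 1.56% and 0.909% of all measured genes were. Between array B and control the counts were 0 and 0 of 40, against a background of 0.31% and 0.281%. In hypoxia against control 1 of 41 was higher and 1 lower, against a background of 4.42% and 0.469%. In triple stimuli against control 0 of 40 were called in either direction, where 5.08% and 1.72% of all genes were. In triple stimuli against hypoxia 1 of 41 was higher and 1 lower (3.5% and 3.03% of all genes), and with rapamycin added to triple stimuli 0 of 39 were called (1.95% and 2.15%). Each of these counts rests on at most 2 genes.

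**Figure D1:**
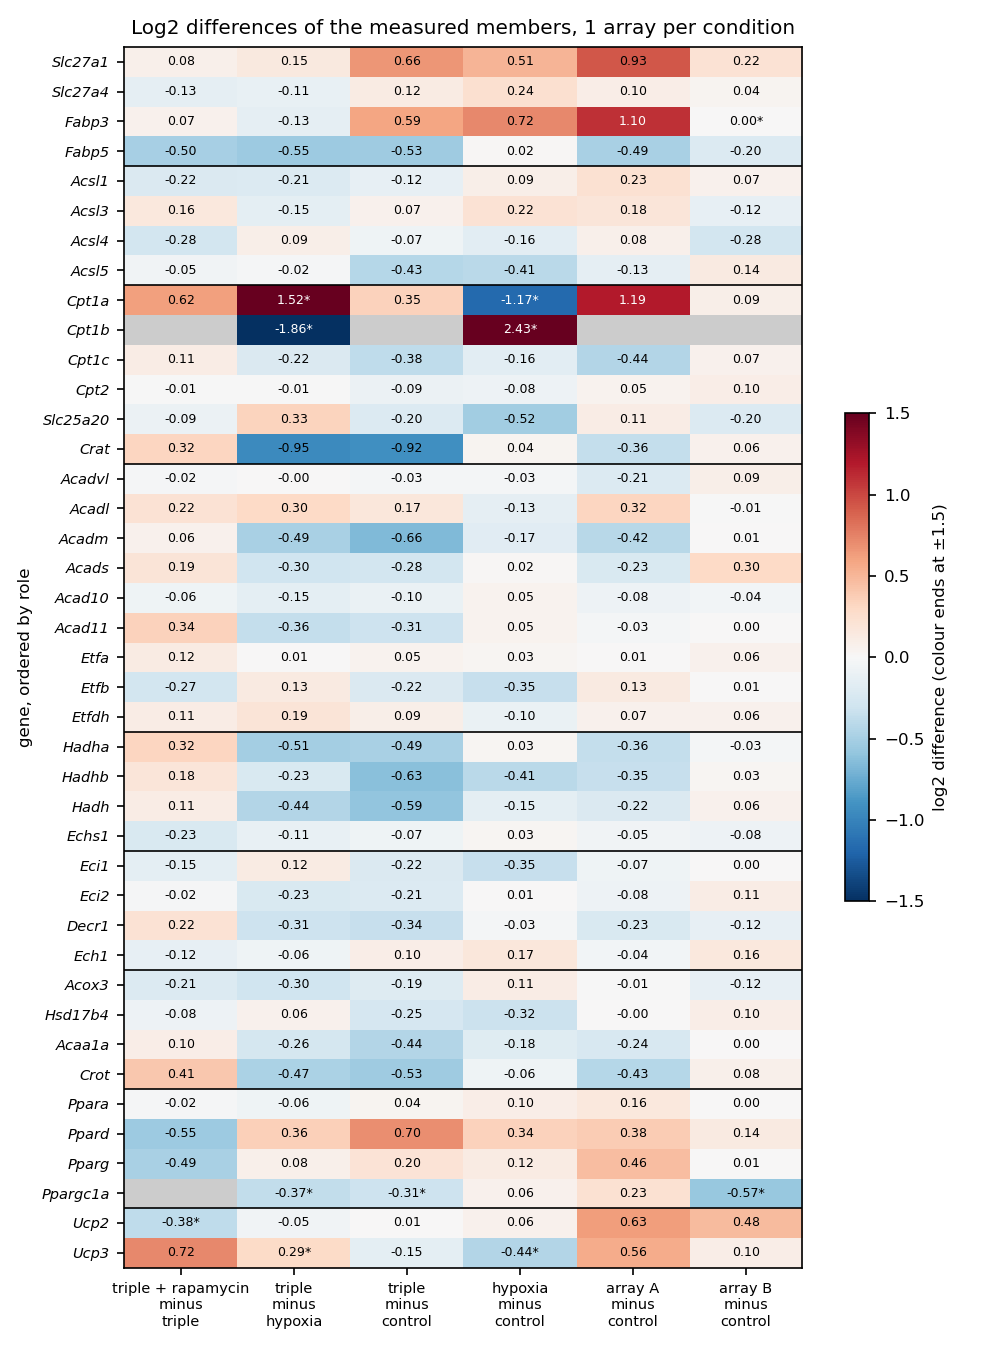
Log2 differences of the measured genes (rows, grouped by role) in 6 comparisons of 2 arrays (columns), in log2 units, with an asterisk for a bound and grey for a pair in which neither array was well above background. The strongest colours belong to Cpt1b, Cpt1a and Fabp3, while the column of triple stimuli against control is mostly below 0, with 27 of 40 genes (50.7% of all genes).

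The gene with the widest range among those well above background on 5 or more arrays was Cpt1a, the CPT1 isoform of liver and kidney (probe on mm9 chromosome 19, 3384060 to 3384119). Its level was -0.87 with triple stimuli plus rapamycin, -1.49 with triple stimuli, -3.01 in hypoxia, -0.64 on array A, -1.74 on array B and -1.84 in control. Array A was highest, triple stimuli with rapamycin came next, and hypoxia was lowest and not well above background. The difference was 1.19 for array A over control (2.28-fold), while hypoxia was at least 2.25-fold lower than control and triple stimuli at least 2.86-fold higher than hypoxia. With normexp, another background correction, these differences were 0.77, -0.30 and 0.60, and all 3 calls on this probe were lost. Array B differed from control by 0.09, triple stimuli from control by 0.35, and rapamycin with triple stimuli from triple stimuli alone by 0.62 (1.54-fold).

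A second Cpt1a probe, at chromosome 19, 3385374 to 3385433, put the 6 arrays in the same order. It has 10 spots, of which 1 carried an outlier mark, and it was left out of the counts above. Over the other 9 spots it stood at 2.80 ± 0.06 with triple stimuli plus rapamycin, 2.15 ± 0.06 with triple stimuli, 0.99 ± 0.05 in hypoxia, 2.89 ± 0.05 on array A, 1.84 ± 0.08 on array B and 1.61 ± 0.10 in control (SD over spots of 1 array, which are not replicates of a condition). Array A was 2.43-fold above control on this probe and triple stimuli 2.24-fold above hypoxia. Hypoxia lay below control by 1.53-fold, short of the 2-fold call that the dim probe gave, and rapamycin with triple stimuli was 1.56-fold above triple stimuli alone. The spots of array A, of hypoxia and of triple stimuli with and without rapamycin did not overlap those of control, which ran from 1.38 to 1.72. The lowest spot was 2.72 with rapamycin, 2.07 with triple stimuli alone and 2.8 on array A, and the highest in hypoxia was 1.05. On array B the lowest spot was 1.72, at the upper end of control.

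**Figure D2:**
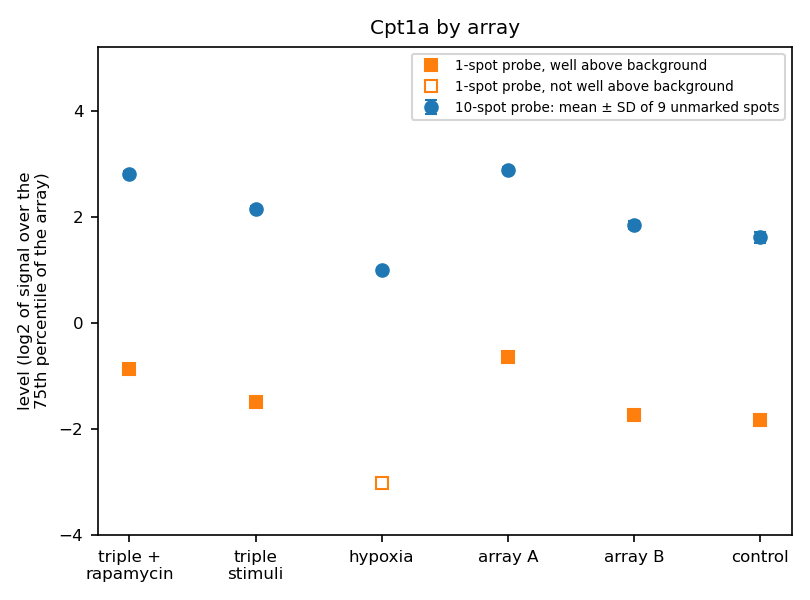
Level of Cpt1a (log2 of signal over the array's 75th percentile) on each of the 6 arrays, for its 1-spot probe (squares, open where not well above background) and its 10-spot probe (circles, mean with SD of 9 unmarked spots). Both probes are highest on array A and lowest in hypoxia, and the 10-spot probe shows a gap between hypoxia at 0.99 and control at 1.61.

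The stretch before the start of Cpt1a is shown because this gene passed 2-fold on both of its probes and is a known PPAR target. It is taken from RefSeq on GRCm38.p6, at chr19:3323051-3323300 on the plus strand, 5' to 3', and capitals mark the nuclear receptor half-site AGGTCA on either strand.
Cpt1a: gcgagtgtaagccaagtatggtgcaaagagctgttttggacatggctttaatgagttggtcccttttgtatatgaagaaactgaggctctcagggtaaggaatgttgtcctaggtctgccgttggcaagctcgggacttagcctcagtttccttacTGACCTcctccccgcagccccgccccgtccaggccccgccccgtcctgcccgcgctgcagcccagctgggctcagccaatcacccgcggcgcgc

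Of 38 members with an upstream window of 250 bases in that table, 8 held AGGTCA on either strand (21.1%, against 15.8% of 27025 genes): Acadm, Acadvl, Cd36, Cpt1a, Cpt1c, Echs1, Pparg and Ucp3. The DR1 element, here a pair of exact AGGTCA half-sites in the same direction 1 base apart, was in 0 members and in 0.0407% of genes. The HIF core ACGTG was in 4 members (10.5%, against 18.5%), and the GC box GGGCGG was in 28 (73.7%, against 35.4%). These are matches of letters and not sites of binding.

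Among the uptake and binding genes, Fabp3 and Slc27a1 stood above control with triple stimuli, in hypoxia and on array A, and Fabp5 stood below control with triple stimuli and on array A. Fabp3, the heart-type binding protein (chromosome 4, 129992652 to 129992711), had -2.77 with triple stimuli plus rapamycin, -2.84 with triple stimuli, -2.71 in hypoxia, -2.32 on array A, -3.29 on array B and -3.43 in control. Array A was highest, and the level on array B was not well above background. Array A was 2.15-fold above control (difference 1.10), hypoxia stood 0.72 and triple stimuli 0.59 above it. With normexp background correction the difference of array A was 0.46, which ends the call, and the second Fabp3 probe was not well above background on any array.

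Slc27a1, the transport protein FATP1 (chromosome 8, 74110256 to 74110315), ran at 0.06 with triple stimuli plus rapamycin, -0.02 with triple stimuli, -0.17 in hypoxia, 0.25 on array A, -0.45 on array B and -0.68 in control. All 5 stimulated arrays lay above control, array A by 1.9-fold, triple stimuli by 1.58-fold and hypoxia by 1.42-fold, all short of the call, and its spot lies in the first 64 rows. Slc27a4, the related FATP4, kept between -1.68 and -1.43. Fabp5 (chromosome 3, 10016185 to 10016244) had 5.18 with triple stimuli plus rapamycin, 5.68 with triple stimuli, 6.22 in hypoxia, 5.72 on array A, 6.0 on array B and 6.20 in control. The arrays fell into a pair at the top, hypoxia and control, and a lowest one with rapamycin, which was 0.50 below triple stimuli, while triple stimuli was 0.53 and array A 0.49 below control. Cd36, the fatty acid translocase, and Fabp4, the adipocyte binding protein, were not well above background on any array.

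The acyl-CoA synthetases, which activate the fatty acid, differed by less than 2-fold throughout. Acsl4, which prefers polyunsaturated fatty acids, had 3.51 with triple stimuli plus rapamycin, 3.79 with triple stimuli, 3.70 in hypoxia, 3.94 on array A, 3.58 on array B and 3.86 in control. Acsl5 had 2.11, 2.16 and 2.18 on the arrays of triple stimuli with rapamycin, triple stimuli and hypoxia, against 2.46, 2.73 and 2.59 on array A, array B and control. The groups at 1% and 20% oxygen did not overlap for Acsl5. Acsl1, the main long-chain synthetase of many tissues, ranged from 1.88 with rapamycin to 2.44 on array A, and Acsl3 from 0.13 on array B to 0.48 with rapamycin.

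In the carnitine shuttle apart from Cpt1a, the inner-membrane enzyme Cpt2 was steady, at 3.40 with triple stimuli plus rapamycin, 3.41 with triple stimuli, 3.43 in hypoxia, 3.56 on array A, 3.60 on array B and 3.50 in control. Cpt1b, the muscle isoform (chromosome 15, 89246836 to 89246895), was well above background in hypoxia only, at -1.22, against -4.86 with triple stimuli plus rapamycin, -4.91 with triple stimuli, -3.54 on array A, -3.66 on array B and -4.30 in control. Hypoxia was at least 5.4-fold above control and triple stimuli at least 3.63-fold below hypoxia. With normexp these differences were 1.24 and -0.82, and the second call was lost. That single spot lies in the first 64 rows, and the second Cpt1b probe (chromosome 15, 89247106 to 89247165) was not well above background on any array and read 0.36 lower in hypoxia than in control, so the call rests on 1 spot of 1 array.

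Crat, the carnitine acetyltransferase that handles short chains (chromosome 2, 30265479 to 30265538), lay below control with triple stimuli by an amount that depended on the background correction. Its level was -1.69 with triple stimuli plus rapamycin, -2.01 with triple stimuli, -1.06 in hypoxia, -1.46 on array A, -1.04 on array B and -1.10 in control. Triple stimuli lay 0.92 below control, from -1.0 to -0.51 over the 4 other scalings or backgrounds, and 0.95 below hypoxia. With rapamycin the level was 0.32 above triple stimuli alone. Slc25a20, the carnitine-acylcarnitine translocase, ranged from -1.04 in hypoxia to -0.40 on array A. Cpt1c, the isoform of neurons, ranged from -0.03 on array A to 0.49 on array B, and both of its probes stood lower with triple stimuli than in control (differences -0.38 and -0.49).

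The acyl-CoA dehydrogenases start each turn of the spiral on chains of different length. Acadvl, for very long chains, had 5.70 with triple stimuli plus rapamycin, 5.72 with triple stimuli, 5.72 in hypoxia, 5.54 on array A, 5.84 on array B and 5.75 in control, and varied little. Acadm, for medium chains (chromosome 3, 153585670 to 153585729), had 3.13 with triple stimuli plus rapamycin, 3.07 with triple stimuli, 3.56 in hypoxia, 3.31 on array A, 3.74 on array B and 3.73 in control. Triple stimuli was 0.66 below control and 0.49 below hypoxia, array A was 0.42 below control, and array B matched control within 0.01.

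Acadl, for long chains, ran the other way, with 2.30 on triple stimuli plus rapamycin, 2.08 on triple stimuli, 1.78 in hypoxia, 2.23 on array A, 1.90 on array B and 1.91 in control. Its single spot lies in the first 64 rows. In those rows 10.9% of genes were at least 2-fold higher with triple stimuli than in control, against 3.85% in the other rows. Acads, for short chains, ranged from 0.93 with triple stimuli to 1.51 on array B, Acad11 from 1.24 with triple stimuli to 1.60 in hypoxia, and Acad10 from 2.39 to 2.60. Of the electron carriers, Etfa ranged from 3.87 to 4.04 and Etfdh, the ubiquinone oxidoreductase, from 3.39 to 3.68. Etfb had 5.05, 5.32 and 5.19 with triple stimuli plus rapamycin, triple stimuli and hypoxia, against 5.67, 5.55 and 5.54 on array A, array B and control, again without overlap.

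Of the hydratase, dehydrogenase and thiolase steps, Hadha, Hadhb and Hadh lay below control with triple stimuli. All 4 measured genes were lower with triple stimuli than with control, with a median difference of -0.54, and all 4 were lower on array A (median -0.28) and in triple stimuli against hypoxia (median -0.34). Among them Echs1 differed from control by only -0.07 with triple stimuli and -0.05 on array A. Acaa2, left out of these counts, differed by -0.02, 0.27 and 0.18 in the 3 comparisons over its unmarked spots. Over all measured genes, 50.7% were below 0 in triple stimuli against control, 51.4% on array A and 53.5% in triple stimuli against hypoxia, with medians of -0.01, -0.01 and -0.03. Triple stimuli and array A were each set against the same control, and triple stimuli appears in both of its comparisons.

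Hadha, the alpha subunit of the trifunctional protein, which holds hydratase and dehydrogenase activities for long chains (chromosome 5, 30446215 to 30446274), had 1.23 with triple stimuli plus rapamycin, 0.92 with triple stimuli, 1.43 in hypoxia, 1.04 on array A, 1.38 on array B and 1.41 in control. Hadhb, its thiolase subunit (chromosome 5, 30510925 to 30510984), had 3.08 with triple stimuli plus rapamycin, 2.90 with triple stimuli, 3.13 in hypoxia, 3.19 on array A, 3.56 on array B and 3.54 in control. Both subunits were lowest with triple stimuli, by 0.49 and 0.63 below control, but in hypoxia they parted, with Hadha 0.03 above control and Hadhb 0.41 below it. The single spot of Hadha lies in the first 64 rows, and that of Hadhb does not. Hadh, the dehydrogenase for short and medium chains (chromosome 3, 130936889 to 130936948), had 3.39 with triple stimuli plus rapamycin, 3.29 with triple stimuli, 3.73 in hypoxia, 3.66 on array A, 3.94 on array B and 3.88 in control. It too was lowest with triple stimuli, 0.59 below control. Echs1, the short-chain hydratase, ranged from 2.95 with rapamycin to 3.29 in hypoxia. The 6 unmarked spots of Acaa2 did not share the pattern, with 4.23 ± 0.03 for triple stimuli plus rapamycin, 4.49 ± 0.05 for triple stimuli, 4.32 ± 0.02 for hypoxia, 4.78 ± 0.02 for array A, 4.68 ± 0.03 for array B and 4.51 ± 0.06 for control (SD over spots).

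Hadha and Hadhb start from opposite strands 272 bases apart, and Acadm was the dehydrogenase furthest below control with triple stimuli, so the stretches before these starts are shown as RefSeq gives them on GRCm38.p6. Acadm is at chr3:153944644-153944893 on the minus strand and Hadha and Hadhb at chr5:30154981-30155252 on the plus strand, and capitals again mark AGGTCA on either strand, of which the shared stretch held none.
Acadm: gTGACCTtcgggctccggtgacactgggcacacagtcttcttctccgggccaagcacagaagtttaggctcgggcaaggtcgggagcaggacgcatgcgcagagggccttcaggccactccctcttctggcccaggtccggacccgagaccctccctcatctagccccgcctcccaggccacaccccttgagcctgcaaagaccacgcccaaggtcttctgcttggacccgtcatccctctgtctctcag
Hadha and Hadhb: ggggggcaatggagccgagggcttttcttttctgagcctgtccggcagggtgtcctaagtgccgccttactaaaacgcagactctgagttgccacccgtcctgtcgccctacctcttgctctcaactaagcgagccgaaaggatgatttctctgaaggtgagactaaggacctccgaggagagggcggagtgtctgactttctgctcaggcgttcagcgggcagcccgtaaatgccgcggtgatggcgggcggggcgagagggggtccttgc

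**Figure D3:**
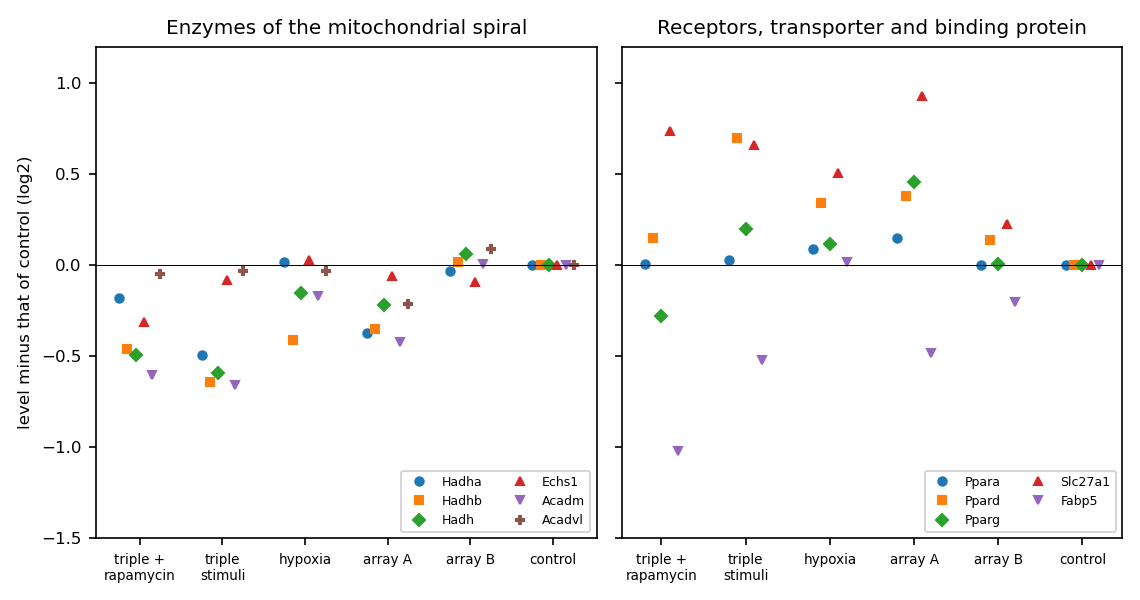
Level of each gene minus its level in control (log2) on the 6 arrays, for enzymes of the spiral (left) and for the PPAR receptors, Slc27a1 and Fabp5 (right). With triple stimuli, Acadm, Hadhb, Hadh and Hadha lie 0.49 to 0.66 below control while Ppard lies 0.70 above it.

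Among the auxiliary enzymes, which handle unsaturated chains, Decr1 (2,4-dienoyl-CoA reductase) had 5.21 with triple stimuli plus rapamycin, 4.99 with triple stimuli, 5.30 in hypoxia, 5.10 on array A, 5.22 on array B and 5.33 in control. Its second probe, also well above background on all arrays, was lowest with triple stimuli too, 0.67 below control where the first was 0.34 below. The single spot of the first probe lies in the first 64 rows. The isomerase Eci1 ranged from 3.61 with rapamycin to 3.99 on array B, Eci2 from 4.43 to 4.77 and Ech1 from 1.69 to 1.90.

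In the peroxisome, all 4 measured genes were lower with triple stimuli than in control (median -0.35), where 50.7% of all genes were lower (median -0.01). The thiolase Acaa1a had 4.52 with triple stimuli plus rapamycin, 4.41 with triple stimuli, 4.67 in hypoxia, 4.62 on array A, 4.86 on array B and 4.86 in control. Crot, the carnitine octanoyltransferase that prepares shortened chains for export to mitochondria, had 1.26 with triple stimuli plus rapamycin, 0.85 with triple stimuli, 1.33 in hypoxia, 0.95 on array A, 1.46 on array B and 1.38 in control, and was 0.53 below control with triple stimuli and 0.41 higher with rapamycin added. The spot of Crot lies in the first 64 rows. Hsd17b4, the D-bifunctional protein, ranged from 4.46 with rapamycin to 4.89 on array B. The oxidase Acox3 ranged from 1.47 to 1.98, and its other 2 probes stood 0.24 and 0.56 below control with triple stimuli. Ehhadh, the L-bifunctional protein and a classical PPARalpha target in liver, was not well above background on any array.

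All 4 genes of the receptors and their coactivator were above control on array A (median 0.31). Ppard, the receptor PPARdelta (chromosome 17, 28438298 to 28438357), had 2.94 with triple stimuli plus rapamycin, 3.49 with triple stimuli, 3.13 in hypoxia, 3.17 on array A, 2.93 on array B and 2.79 in control. Triple stimuli was highest, 0.70 above control (1.62-fold), and with rapamycin the level was 0.55 below that of triple stimuli. Pparg, the receptor PPARgamma, was read from 10 spots and had 2.12 ± 0.05 with triple stimuli plus rapamycin, 2.60 ± 0.06 with triple stimuli, 2.52 ± 0.06 in hypoxia, 2.86 ± 0.06 on array A, 2.41 ± 0.04 on array B and 2.40 ± 0.06 in control (SD over spots of 1 array). Its spots on array A, from 2.76 to 2.93, lay above all those of control, from 2.3 to 2.48, and with rapamycin the highest spot, 2.2, lay below the lowest of triple stimuli, 2.53. Ppara kept between -1.28 and -1.13 on the probe used, and its other probes were not well above background on any array.

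Ppargc1a, which encodes the coactivator PGC-1alpha, was near the limit of detection (chromosome 5, 51848928 to 51848987). It was well above background in hypoxia, on array A and in control, at -2.71, -2.54 and -2.78, and not with triple stimuli plus rapamycin, with triple stimuli or on array B, at -4.26, -5.10 and -3.48. The bounds on its difference from control were too small for a call, at -0.31 or lower with triple stimuli and -0.57 or lower on array B. A second Ppargc1a probe was not well above background on any array. The uncoupling proteins were also dim, and a second Ucp3 probe was not well above background on any array either. Ucp3 had -2.07 with triple stimuli plus rapamycin, -2.79 with triple stimuli, -3.11 in hypoxia (not well above background), -2.08 on array A, -2.54 on array B and -2.64 in control, which put rapamycin with triple stimuli 0.72 above triple stimuli alone. Ucp2 ranged from -3.17 with rapamycin, where it was not well above background, to -2.16 on array A.

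Set against the whole array, the pathway lay slightly low in triple stimuli. The median difference of its 40 measured genes from control was -0.17 (all genes -0.01), and 27 of 40 were below 0 (50.7% of all genes). Of the 40, 13 (32.5%) were 0.3 or more below 0, where 21.6% of all genes were, while 4 were 0.3 or more above 0, where 20.3% of all genes were. In triple stimuli against hypoxia 28 of 41 were below 0 (53.5% of all genes) with a median of -0.11 (all genes -0.03). For hypoxia against control the median was 0.02 with 19 of 41 below 0 (51.6% of all genes), for array A -0.01 with 21 of 40 (51.4%), for array B 0.03 with 11 of 40 (43.3%), and for rapamycin with triple stimuli against triple stimuli -0.01 with 20 of 39 (54.7%). Genes of a pathway are not independent samples, and these shares describe the arrays.

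Smaller differences, short of a call, are listed here for hypoxia and array B, each from 1 array per condition. In hypoxia against control 4 of 41 genes (9.8%) were 0.3 or more above 0 and 8 (19.5%) were 0.3 or more below 0, calls included. Of all genes, 15.5% and 15.2% were. Those above and not called were Fabp3 at 0.72, Slc27a1 at 0.51 and Ppard at 0.34. Of those below and not called, Slc25a20 stood at -0.52, Ucp3 at -0.44 or lower, Acsl5 and Hadhb at -0.41, Etfb and Eci1 at -0.35 and Hsd17b4 at -0.32. On array B only Ucp2 at 0.48, Acads at 0.30 and Ppargc1a, with its bound of -0.57, differed from control by 0.3 or more among the 40 genes, where 6.28% of all genes did so above 0 and 6.45% below.

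With rapamycin added to triple stimuli, the genes furthest above triple stimuli alone were Ucp3 (0.72), Cpt1a (0.62), Crot (0.41), Acad11 (0.34), Crat (0.32) and Hadha (0.32). Those furthest below were Ppard (-0.55), Fabp5 (-0.50), Pparg (-0.49) and Ucp2 (-0.38 or lower), while Ppara differed by -0.02. Over the 4 other scalings or backgrounds the difference came down to 0.26 for Ucp3, 0.36 for Cpt1a, 0.14 for Crat and -0.18 for Ucp2. The single spots of Crot, Hadha and Ucp2 lie in the first 64 rows, as does the first of the 10 spots of Pparg. In those rows 7.28% of genes were at least 2-fold higher and 7.19% lower in this comparison. In the other rows 0.736% and 1.01% were. Crot, Acad11, Crat and Hadha had their lowest level on the triple stimuli array, and Ppard its highest. The triple stimuli array is shared by these comparisons, so the opposed signs are not separate evidence.

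Array A against control and triple stimuli against hypoxia share no array, so they could be set side by side. Of the 35 genes well above background on all arrays, 28 had the same sign in both (80.0%, against 72% of 14991 genes), 19 of them below 0 in both, and Pearson's r across genes was 0.70 (all genes 0.64). For array B against control and triple stimuli against hypoxia the same sign was found in 15 of 35 (42.9%, against 51.4%) with r of 0.04 (all genes 0.06). These correlations are across genes of the same 4 arrays, which are not independent, and the members stood near the figures for all genes.

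**Figure D4:**
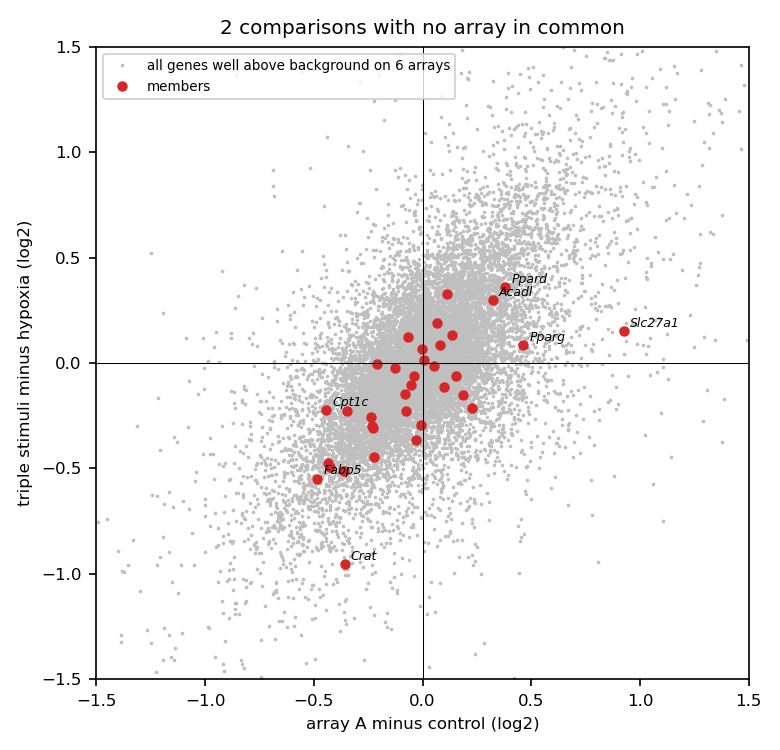
Log2 difference of triple stimuli from hypoxia against that of array A from control, for 35 members (coloured, some named) over all genes well above background on 6 arrays (grey), with both axes cut at 1.5 and 166 grey genes outside. The members lie along the diagonal of the grey cloud, with 28 of 35 in the quadrants of equal sign.

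The 3 arrays at 1% oxygen had further stimuli and are not replicates, so their comparison with the 3 at 20% is a description that also compares the rows of the slide. In 7 of 35 genes all 3 arrays at 1% lay below all 3 at 20%, where 16% of all genes did. In 0 they lay above, where 9.93% of all genes did, although Etfa joined with quantile normalization or median centring of the arrays. The 7 were Acsl5 (mean difference -0.44), Etfb (-0.40), Hadhb (-0.39), Hsd17b4 (-0.33), Slc25a20 (-0.31), Eci1 (-0.29) and Cpt2 (-0.14). With median centring Hadhb and Slc25a20 dropped out, leaving 5, while Echs1 joined with normexp. Slc25a20 stood at -0.71 both with triple stimuli and on array B, and Hadhb at 3.13 in hypoxia and 3.19 on array A. The single spots of Cpt2 and Hsd17b4 lie in the first 64 rows. The median difference over the 35 was -0.13, against -0.05 for all genes.

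Neighbouring genes were counted in 7 lists written beside the members. The lists were chosen with earlier results of these data known, so their counts may partly follow that choice. Of PPAR targets outside the members, 6 of 10 measured were called higher and 0 lower on array A (median 1.66), 5 higher and 1 lower of 9 in triple stimuli (median 1.93) and 6 higher of 9 in triple stimuli against hypoxia (median 1.49), while hypoxia had 1 and 1 of 9 (median -0.10) and array B 0 and 0 of 9 (median 0.2). Over all measured genes the shares called higher and lower were 1.56% and 0.909% on array A, 5.08% and 1.72% in triple stimuli, 3.5% and 3.03% in triple stimuli against hypoxia, 4.42% and 0.469% in hypoxia and 0.31% and 0.281% on array B. The acyl-CoA thioesterase Acot2 was 3.01 above control on array A and 2.85 with triple stimuli, and the pyruvate dehydrogenase kinase Pdk4 was 2.32 higher with triple stimuli than in hypoxia. With rapamycin 1 of 8 was called, Acot1, at 1.19 (1.95% of all genes).

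Other mitochondrial oxidation genes, mostly of branched chains and amino acids, had 12 of 15 below 0 with triple stimuli against control (median -0.42), with 1 called, Ivd (isovaleryl-CoA dehydrogenase) at -1.05. In the ketone body list 5 of 6 were below 0 (median -0.62), with 1 called, the dehydrogenase Bdh1 at -1.51. Of all genes 50.7% were below 0 in triple stimuli against control, with 5.08% called higher and 1.72% lower. Of 16 other peroxisomal genes measured in that comparison 1 was called lower, Hacl1 (-1.18), and 1 higher, Abcd2 (at least 2.24), both with spots in the first 64 rows. Of 13 genes of malonyl-CoA and AMPK control, 2 were called higher in hypoxia, Acacb (1.43), whose product makes the malonyl-CoA that inhibits CPT1, and Prkab2 (1.08), an AMPK subunit. Of receptor partners 1 of 15 was called in hypoxia, the lipin gene Lpin1 (1.13), and of the other uptake genes 1 of 8, the lipoprotein receptor Vldlr (2.24). Of all genes 4.42% were called higher and 0.469% lower in hypoxia, so these counts of 1 gene are not read as a trait of a list. In triple stimuli Vldlr stood 2.02 and the synthetase Acsbg1 2.43 above control, and Acsbg1 was 1.69 above it on array A.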

How the data were processed

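The 6 RNA samples were hybridised to 6 single-colour (Cy3) arrays. The authors used Agilent Feature Extraction 10.7.3.1, per the submitters' processing notes, and its processed signal is background-subtracted and detrended, per the file headers. The deposited scanner files give this intensity for each spot on a linear scale, not scaled between arrays. The authors' value table gives a ratio for each probe, namely that signal over the 75th percentile of its array (read from its values), with column medians from 0.0505 to 0.0562. Setting it against the scanner files, array by array, gave an SD of the log2 difference of 2.87e-07 for array A and 2.89e-07 for array B under the crossed labels, against 0.513 and 0.49 for the nearest other column.

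From the intensities, levels were computed with Python 3.11.15, pandas 2.3.3 and numpy 2.4.6. Of 55681 probes, 323 with an outlier mark on any array were left out. Of 59305 spots, 40.3% to 43.8% were well above background per array and 0 were saturated. The number of arrays limits the precision. The members, the 7 other pathway lists and the 7 marker lists were chosen with earlier results of these data known. Every member is named. The 6 levels are given in full for each member called 2-fold and for the highest mean level in each role, and further members were given in full after their values were seen. Outside the members, those named were called 2-fold, up to 4 per list and comparison, plus 3 oxygen targets and markers of cell types. Alternatives were 8 planned settings (scaling, normexp with offset 50 in limma 3.58.1, the value table, probes, filters, position, a 1.5-fold threshold) and 1 added after seeing the data. The calling step was tested on simulated data. Gene names are those of the files, promoter stretches are from RefSeq GRCm38.p6, probe positions are mm9 as the files give them, and exons and UTRs were not annotated here. Gene names matched to RefSeq for all 45 members.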

Additional observations from a re-analysis of the deposited data

How the results depend on the processing

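With 1 array per condition no alternative adds a replicate, and dim probes near background limit Cpt1b, Fabp3, Ppargc1a, Ucp2, Ucp3 and the 1-spot probe of Cpt1a. No paired analysis was possible because each condition has 1 array and no test was made. Of the counts of called genes and of genes without overlap between oxygen levels, 103 were unchanged or within 1.5 times of the value given, and 19 moved. Many of the 103 were counts of 0 that stayed 0, so this tally does not measure how stable the calls were. Every count of calls above 0 as given moved under at least 1 setting. With normexp background correction the calls became 0 for higher on array A (2 as given), 0 for lower in hypoxia (1) and 0 and 0 for triple stimuli against hypoxia (1 and 1), with Cpt1a at 0.77 and Fabp3 at 0.46 on array A, Cpt1a at -0.30 in hypoxia, and Cpt1a at 0.60 and Cpt1b at -0.82 in triple stimuli against hypoxia. With only genes well above background on both arrays the calls were 0 and 0 both in hypoxia against control and in triple stimuli against hypoxia. Outside the first 64 rows, higher in hypoxia and lower in triple stimuli against hypoxia were 0. With only the marked spots left out, lower in hypoxia was 0, as Cpt1a was read from its 10-spot probe at -0.62. At 1.5-fold the counts were 4 higher on array A (Cpt1a, Fabp3, Slc27a1, Ucp2), 2 higher in hypoxia (Cpt1b, Fabp3), 3 higher (Fabp3, Ppard, Slc27a1) and 4 lower (Acadm, Crat, Hadh, Hadhb) with triple stimuli against control, 2 lower against hypoxia (Cpt1b, Crat), and 2 higher with rapamycin (Cpt1a, Ucp3). The share of all genes passing 1.5-fold was not counted, so these counts cannot be set against the arrays at large. Etfa became the 1 gene whose arrays at 1% oxygen all lay above those at 20%, with quantile normalization and with median centring. The genes whose arrays at 1% all lay below, 7 as given, numbered from 5 to 8 over the settings. The 4 measured genes of the hydratase, dehydrogenase and thiolase steps were all lower with triple stimuli and on array A under each of the 4 other scalings or backgrounds. Their medians were -0.52 to -0.55 and -0.29 to -0.32. This does not cover the acyl-CoA dehydrogenases, of which Acadl was 0.17 and 0.32 above control on those arrays as given. Of the peroxisomal genes 3 of 4 were below 0 on array A with quantile normalization, and of the receptors 2 of 4 were above 0 with triple stimuli under that setting (3 as given). Of 241 differences of members, 36 changed sign between these settings, all of 0.15 or less in size as given (Ucp3 with triple stimuli against control ran from -0.29 to 0.10), and 0 of them were calls.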
